A study of Homo sapiens with 9 samples.

Results

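The IFIT, OAS and MX genes encode antiviral effector proteins that cells make in response to interferon, and 10 of them were described here across the 9 libraries: IFIT1, IFIT2, IFIT3, IFIT5, OAS1, OAS2, OAS3, OASL, MX1 and MX2. They were taken by name from the 3 families, with earlier results of these data known. Every array probe annotated to one of them was taken, which gave 21 probes for 10 genes out of 30113 probes for 20046 named genes. The 10 are not the whole families: IFIT1B has a named probe, was detected in no library and is described only with the neighbouring genes. The libraries were total RNA of U937, a human myeloid line from a histiocytic lymphoma, hybridised to Illumina HumanHT-12 v4 bead arrays. All 9 came from cells that had taken up a lentiviral H1 promoter vector, were sorted for GFP after 48 h and were grown for 4 more days. The vector carried the hairpin shDEK14 in 3 libraries, the hairpin shDEK17 in 3 libraries, both aimed at the transcript of the chromatin protein DEK, and no hairpin in the 3 libraries labelled shEMPTY. Same-numbered libraries of the 3 groups carry the same experiment number. The labels do not say whether the arrays of a group came from separate transductions, so a p-value here reflects only how far these arrays scatter, and that scatter may be technical. All groups are of 1 cell line, and every comparison is between transduced cells.

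Interferons are secreted when a cell senses foreign nucleic acid, and they act on surface receptors whose kinases JAK1 and TYK2 activate transcription factors. A complex that contains IRF9 then binds the interferon-stimulated response element, a short element in the promoters of many antiviral genes. Of the IFIT proteins, IFIT1 binds RNA that lacks the marks of the cell's own messengers and blocks its translation. OAS1, OAS2 and OAS3 are activated by double-stranded RNA and make short oligoadenylates that act as a second messenger, whereas OASL has lost that activity and assists the RNA sensor RIGI. MX1 and MX2 are dynamin-like GTPases, of which MX1 acts against influenza and many other RNA viruses and MX2 against HIV and herpesviruses.

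The promoter sequences are shown because the response element is the feature these genes are best known to share. RefSeq promoters (build GRCh38.p14, 250 bases before to 50 after a transcription start) were matched to 6 of the 10 genes, with 9 promoters in all. Both strands were searched for GAAA, 2 bases of any kind and GAAA, which reads TTTC, 2 bases and TTTC on the other strand, and capitals mark the matches. The motif was present in 7 of the 9 promoters, against 1255 of all 35116 promoters in the table (3.57%). A match describes the letters of the window and was not tested for binding.

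IFIT1, chr10:89392373-89392672, + strand: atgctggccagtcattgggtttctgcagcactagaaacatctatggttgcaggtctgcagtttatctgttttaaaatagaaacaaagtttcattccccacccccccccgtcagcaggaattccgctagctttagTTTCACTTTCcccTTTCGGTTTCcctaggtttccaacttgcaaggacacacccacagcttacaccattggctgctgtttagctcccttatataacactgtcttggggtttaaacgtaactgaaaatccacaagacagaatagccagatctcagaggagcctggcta
IFIT3, chr10:89327747-89328046, + strand: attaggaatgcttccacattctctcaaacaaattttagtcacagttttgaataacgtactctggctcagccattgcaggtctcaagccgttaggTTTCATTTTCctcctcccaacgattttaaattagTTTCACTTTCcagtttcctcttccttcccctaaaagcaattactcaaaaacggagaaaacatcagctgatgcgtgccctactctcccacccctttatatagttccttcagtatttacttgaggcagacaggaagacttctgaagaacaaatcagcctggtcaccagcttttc
IFIT5, chr10:89414318-89414617, + strand: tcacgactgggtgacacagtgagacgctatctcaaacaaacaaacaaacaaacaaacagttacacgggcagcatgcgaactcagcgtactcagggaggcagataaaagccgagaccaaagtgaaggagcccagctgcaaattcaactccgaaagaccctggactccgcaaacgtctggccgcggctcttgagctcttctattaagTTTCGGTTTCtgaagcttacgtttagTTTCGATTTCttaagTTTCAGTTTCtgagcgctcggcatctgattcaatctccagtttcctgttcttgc
OAS3, chr12:112938224-112938523, + strand: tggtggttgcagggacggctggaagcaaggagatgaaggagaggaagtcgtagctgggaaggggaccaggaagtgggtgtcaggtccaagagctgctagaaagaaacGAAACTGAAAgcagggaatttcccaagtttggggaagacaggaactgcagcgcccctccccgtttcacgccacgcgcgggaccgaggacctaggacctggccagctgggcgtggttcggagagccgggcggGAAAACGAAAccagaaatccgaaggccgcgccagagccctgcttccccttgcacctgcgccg
MX1, chr21:41420308-41420607, + strand: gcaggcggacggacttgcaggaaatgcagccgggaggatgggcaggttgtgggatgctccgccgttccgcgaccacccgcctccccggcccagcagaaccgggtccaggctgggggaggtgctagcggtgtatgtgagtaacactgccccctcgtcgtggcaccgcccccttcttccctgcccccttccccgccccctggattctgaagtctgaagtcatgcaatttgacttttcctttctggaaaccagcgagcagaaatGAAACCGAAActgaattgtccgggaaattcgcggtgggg

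In IFIT1 the pair of matches began 116 and 103 bases before the start. In the IFIT3 promoter shown they began 156 and 122 bases before it, and a second IFIT3 promoter also held 2, at 94 and 51 bases. IFIT5 held 3, at 45, 19 and 4 bases before the start. OAS3 held 2 on the forward strand, at 143 and 12 bases, and MX1 held 1 in the promoter shown, 11 bases after the start. Of the other MX1 promoters, 1 held a match 196 bases before the start and 1 held none, and the window of OAS1 held none. The search fixed the spacing at 2 bases. With a spacing of 1 base, the OAS1 window held gaaacgaaa, and the MX1 window without a match held tttcgtttc and tttcatttc. Pairs so spaced were not counted in any promoter, so a window without a match may still hold a related element. All matched genes with 2 or more matches in a window were IFIT genes or OAS3.

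Arrays were of similar brightness, with a mean raw intensity of 362.2 to 457.2 and 12729 to 14152 probes detected, and any pair of arrays had an r of 0.961 to 0.986 across genes. Raw intensity of DEK, the targeted gene, went against several labels. It was 2360, 359.4 and 2826 in shDEK14 replicates 1 to 3 and 431.6, 1890 and 532.0 in shDEK17 replicates 1 to 3, against 2510, 293.9 and 2580 in the shEMPTY libraries. Below 1000 there were thus 4 libraries, shDEK14 replicate 2, shDEK17 replicates 1 and 3 and shEMPTY replicate 2, and 5 were above it. Directions between groups rest on these labels, and each library is called by its label. Of the myeloid markers, SPI1, MPO, CTSG, LYZ and ITGAM were detected on all 9 arrays, CSF1R on 8 and FCER1G on 4. CD33 had no named probe. Those of T and NK cells were mostly not, with 3 of 5 detected on none and NCAM1 on all 9. The 3 plasmacytoid dendritic, 3 epithelial and 2 erythroid markers on the array were detected on none, nor was MS4A1 of B cells, while CD79A was detected on 8.

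Intensities are given as the authors' scaled values, which are linear, relative to a common array mean and not background-subtracted, so that a probe without signal sits near the array median of 110.1 to 119.3. A probe is called detected where its detection p against the negative control beads is under 0.01. A single library stood apart for these genes, the one labelled shEMPTY replicate 2. There all 21 probes were detected and all 21 had their highest value of the 9 libraries, while 18.3% of all named probes had their highest value there. The other 8 libraries detected 3 to 6 of the 21. Of the 21 probes, 13 were detected in shEMPTY replicate 2 and nowhere else, against 0.96% of named probes, and 2, of OAS3 and MX2, were detected on all 9 arrays. Over the whole array that library detected 36.9% of named probes, and the others 33.68% to 36.6%.

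**Figure D1:**
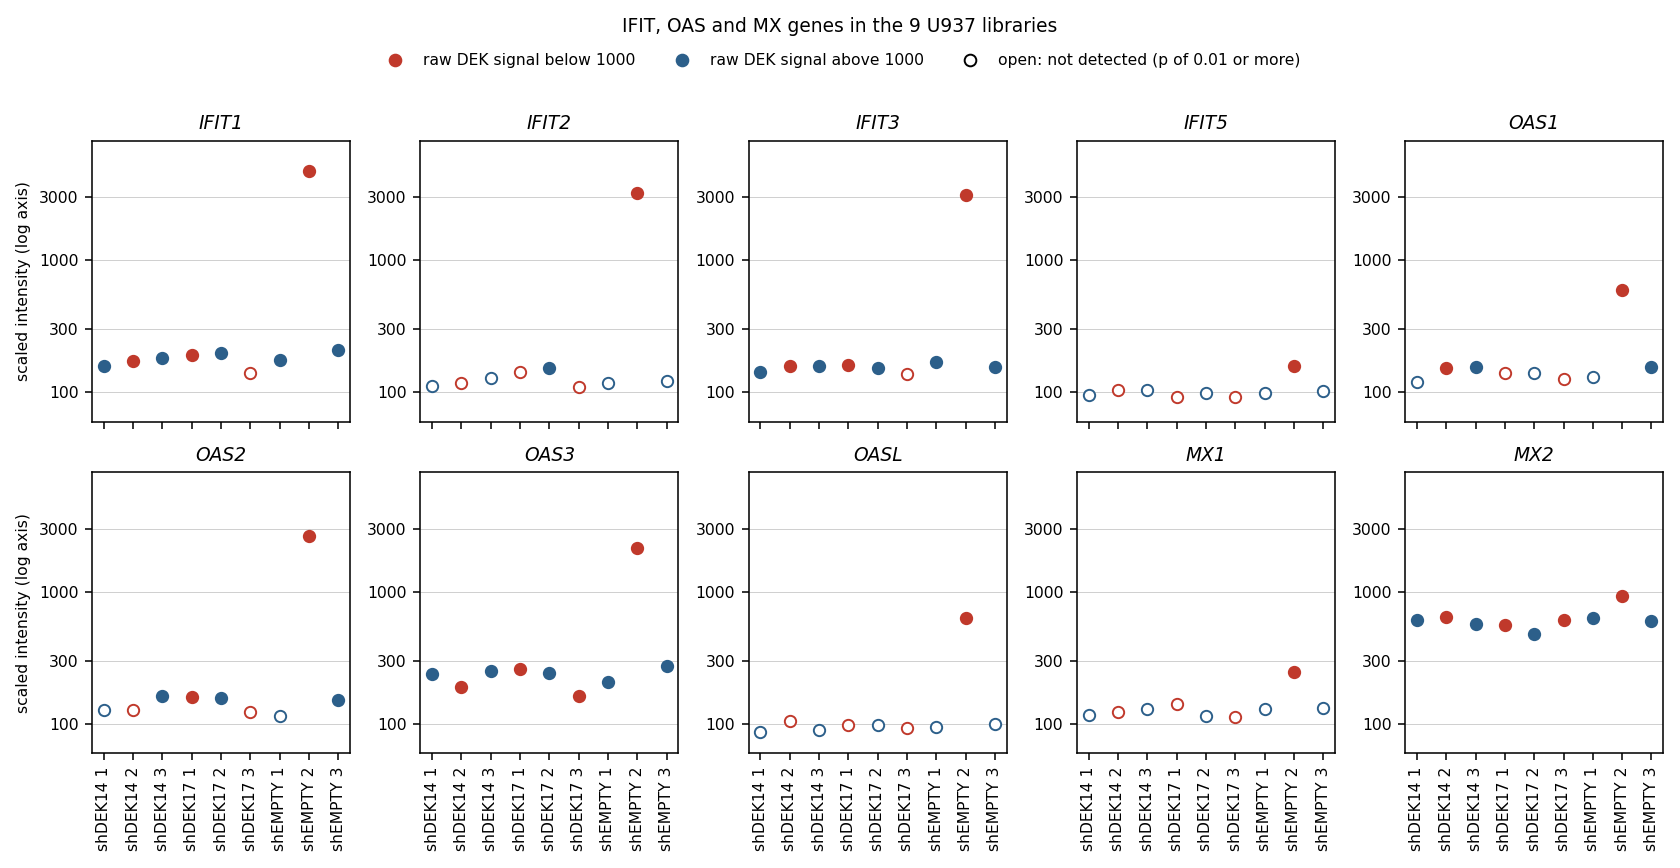
Scaled intensity (log axis) of the 10 genes in the 9 libraries, by label along the horizontal axis, with 1 probe per gene (the brightest, or the one tested). Filled points were detected, open points were not, and colour gives raw DEK signal below (red) or above (blue) 1000. The point of shEMPTY replicate 2 is the highest in every panel, with 4783 for IFIT1, 3211 for IFIT2 and 930 for MX2, and the other 8 lie close together whatever their colour.

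Among the IFIT genes, IFIT1, which holds uncapped or incompletely capped RNA, was bright in that library alone. Its main probe had 158, 173 and 181 in the shDEK14 libraries and 192, 199 and 140 in the shDEK17 libraries, against 177, 4783 and 207 in the shEMPTY libraries. It was detected in all but shDEK17 replicate 3, so a low level was measurable in 7 of the 8 other libraries. A further IFIT1 probe had 188 in shEMPTY replicate 2 and 98.0 to 127 in the others, and was detected only there.

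IFIT2, an IFIT protein that associates with IFIT1 and IFIT3, has 1 probe. It had 111, 117 and 129 in the shDEK14 libraries and 144, 153 and 110 in the shDEK17 libraries, against 117, 3211 and 123 in the shEMPTY libraries. Apart from shEMPTY replicate 2 it was detected in shDEK17 replicate 2 only. IFIT3, which binds and stabilises IFIT1, had 144, 158 and 159 in the shDEK14 libraries and 160, 153 and 139 in the shDEK17 libraries, against 171, 3122 and 155 in the shEMPTY libraries. A second IFIT3 probe had 1873 in shEMPTY replicate 2 and 108 to 146 in the others, and the last had 266 there and 105 to 128. All 3 IFIT3 probes were thus highest in that library. IFIT5, which binds RNA ending in a triphosphate, had 158 in shEMPTY replicate 2 and 91.5 to 105 in the others, and was detected nowhere else.

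Among the OAS genes, OAS1 was carried by 4 probes. The tested one had 119, 152 and 156 in the shDEK14 libraries and 140, 140 and 126 in the shDEK17 libraries, against 131, 600 and 156 in the shEMPTY libraries. It was detected in shDEK14 replicates 2 and 3 and shEMPTY replicates 2 and 3. The other 3 probes of OAS1 were detected in shEMPTY replicate 2 alone, at 887, 693 and 180, and did not exceed 139, 120 and 95.6 elsewhere. OAS2 had 126, 126 and 162 in the shDEK14 libraries and 159, 156 and 122 in the shDEK17 libraries, against 113, 2637 and 150 in the shEMPTY libraries. Its other 3 probes had 702, 286 and 212 in shEMPTY replicate 2 and at most 121, 102 and 112 in the rest.

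OAS3, which prefers long double-stranded RNA, was the only OAS gene detected on all 9 arrays. It had 238, 190 and 248 in the shDEK14 libraries and 259, 241 and 163 in the shDEK17 libraries, against 207, 2138 and 273 in the shEMPTY libraries. Its second probe had 324 in shEMPTY replicate 2 and 88.6 to 108 in the others. OASL was detected in no library but shEMPTY replicate 2, where its probes had 625 and 164, against at most 105 and 119 in the others.

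The MX genes differed by less in that library than most of the others. MX1 had 117, 123 and 129 in the shDEK14 libraries and 141, 115 and 113 in the shDEK17 libraries, against 129, 247 and 132 in the shEMPTY libraries, and was detected only in shEMPTY replicate 2. MX2 was detected everywhere, with 607, 640 and 566 in the shDEK14 libraries and 562, 480 and 611 in the shDEK17 libraries, against 636, 930 and 598 in the shEMPTY libraries. For both genes that library was the highest, and for MX2 it was 1.45 times the next highest one.

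**Figure D2:**
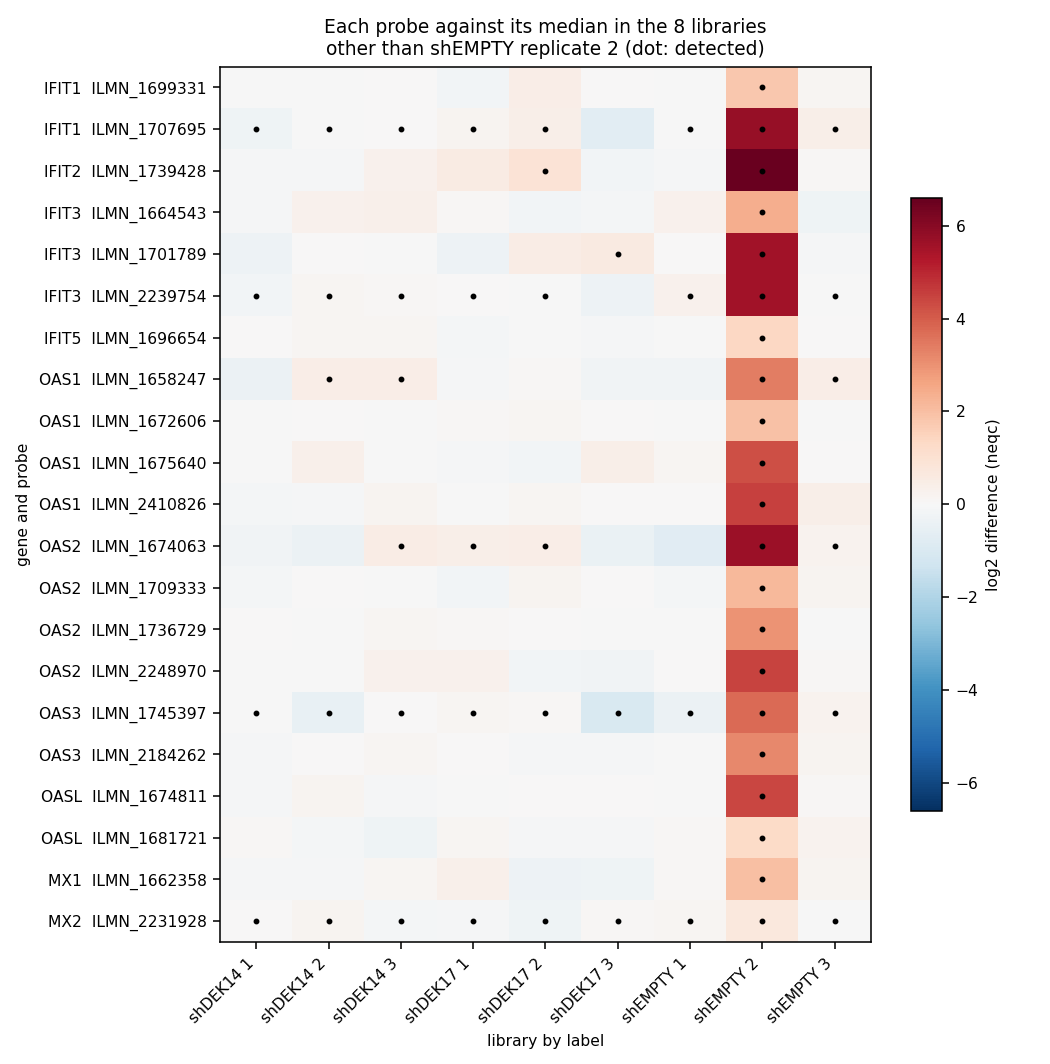
Difference of each of the 21 probes (rows) from its own median in the 8 libraries other than shEMPTY replicate 2 (log2 after neqc, colour), in each library by label (columns), with a dot where the probe was detected. The column of shEMPTY replicate 2 is red in every row, from 0.70 for MX2 to 6.52 for IFIT2, and holds a dot in all 21.

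The size of that difference was measured as the rise, the log2 value in shEMPTY replicate 2 after background correction and quantile normalization (neqc) minus the median of the other 8 libraries. It is a description of 1 library, with no replicate and no test. IFIT2 had a rise of 6.52, which was rank 2 of the 30113 named probes, and 7 of the other 8 libraries did not detect it. IFIT1, detected in 7 of the 8, had 5.74 at rank 5 and a scaled value 26.7 times the median of the others. OAS2 had 5.64 at rank 6, and IFIT3 had 5.55 and 5.53 for its brighter probes at ranks 7 and 8. The rises of IFIT2, IFIT1, OAS2 and IFIT3 differed by less than the range that IFIT1 alone spanned over the other 8 libraries (log2 values of 5.75 to 6.85), so their order is not resolved.

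Further OAS probes followed among other genes, of which ISG15 held rank 9, CXCL10 rank 11 and RSAD2 rank 12. OAS1 had 3.36 at rank 22 by its tested probe and 4.50 at rank 10 and 4.28 at rank 16 by its other bright probes. OAS2 had 4.48 at rank 13 by its second probe. OASL had 4.43 at rank 14, and OAS3 had 3.75 at rank 17. MX1 had 1.97 at rank 64, IFIT5 had 1.34 at rank 102 and MX2 had 0.70 at rank 526. For genes seen in no other library only a bound on the fold could be set against the lowest signal of detected probes. On the neqc scale, where background is subtracted and folds are larger than in scaled intensity, it was at least 9.31-fold for OASL, at least 2.67-fold for MX1 and at least 1.13-fold for IFIT5.

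Over all probes of the 10 genes, 10 of the 21 probes were among the 20 highest rises of the array and 18 among the 100 highest. A rise over 1 was seen for 20 of the 21 probes, against 0.598% of named probes, and MX2 was the exception. In scaled values 14 of the 21 were over 2-fold above every other library, against 0.246% of named probes, or 74 probes in all. In each of the other 8 libraries the number of named probes so far above all others was 0. The median rise of the 10 genes was 4.09, and that of all tested genes was -0.01. Measured against the mean of shEMPTY replicates 1 and 3 alone the median was 4.11. Among the 8611 tested genes, IFIT1, OAS2 and IFIT3 were ranks 1, 2 and 3, OAS3 was rank 5, OAS1 rank 9 and MX2 rank 176, and a rise over 1 was seen in 5 of these 6, against 0.929% of tested genes.

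**Figure D3:**
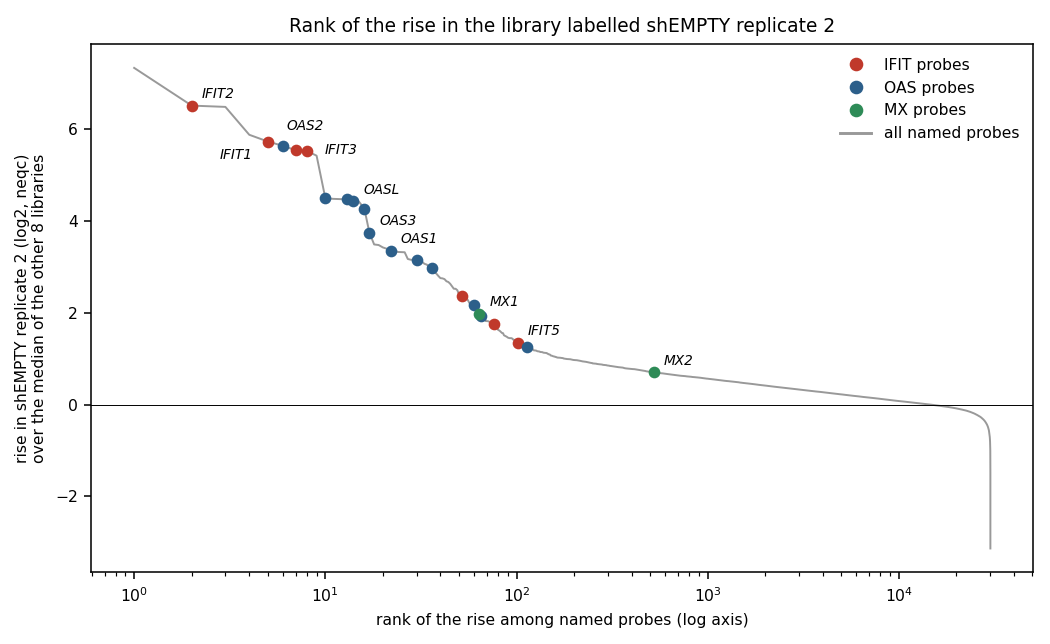
Rise in the library labelled shEMPTY replicate 2 over the median of the other 8 libraries (log2 after neqc, vertical axis) against its rank among the 30113 named probes (log axis), with all named probes as a grey line and the 21 IFIT, OAS and MX probes as points. A name stands by the probe used for each gene. IFIT2 is at rank 2, IFIT1, OAS2 and IFIT3 follow at ranks 5 to 8, and MX2 is at rank 526.

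By raw DEK signal the levels are set out as values only. The library with their high values, shEMPTY replicate 2, had the lowest DEK of all (293.9). The 3 other libraries with DEK below 1000 had IFIT1 at 140 to 192, against 158 to 207 in the 5 with DEK above 1000. For OAS3 these ranges were 163 to 259 below and 207 to 273 above, and for IFIT3 139 to 160 below and 144 to 171 above. For MX2 they were 562 to 640 below and 480 to 636 above, and for OAS2 122 to 159 below and 113 to 162 above. These pairs of ranges overlap, which was not compared with other genes. DEK signal was a measured value that parts the libraries differently from the labels, so no mean or test was made over that split.

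Among the 8 other libraries the lowest scaled value of a gene was most often in shDEK17 replicate 3, which was the lowest of the 8 for IFIT1, IFIT2, IFIT3, IFIT5, OAS3 and MX1 and detected 3 of the 21 probes. After neqc it was the lowest for 4 of the 10 genes. OAS2 was lowest in shEMPTY replicate 1, OAS1 and OASL in shDEK14 replicate 1 and MX2 in shDEK17 replicate 2. No library was thus lowest for all of them.

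The comparison the labels imply asks whether the genes differed between cells given a DEK hairpin and cells given the empty vector. It was made with limma over all 9 libraries, for the 6 genes with a probe detected on at least 3 arrays (IFIT1, IFIT3, OAS1, OAS2, OAS3 and MX2). IFIT2, IFIT5, OASL and MX1 did not reach that and have no p. Since a gene can pass the filter through the group where it is high, the 6 do not stand for the 10. In bulk RNA, fewer cells that express a gene and less RNA per cell cannot be told apart.

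For the average of both hairpins, none of the 6 genes passed the test. IFIT1 averaged 6.40 ± 0.38 (log2, SD, n = 6) in the libraries labelled shDEK14 and shDEK17 and 8.50 ± 3.22 (n = 3) in those labelled shEMPTY, a log2 fold change of -2.11 ± 0.97 (SE) with a limma adjusted p of 0.937. IFIT3 averaged 6.0 ± 0.17 in the hairpin libraries and 7.99 ± 3.13 in the shEMPTY libraries, a log2 fold change of -1.99 ± 0.93 (limma adjusted p of 0.937). OAS2 averaged 5.71 ± 0.43 in the hairpin libraries and 7.38 ± 3.44 in the shEMPTY libraries, a difference of -1.68 ± 1.04. OAS3 averaged 7.04 ± 0.44 in the hairpin libraries and 8.46 ± 2.22 in the shEMPTY libraries, a difference of -1.42 ± 0.70. OAS1 had -1.16 ± 0.59 and MX2 -0.30 ± 0.18. For these 4 the limma adjusted p was 0.951 or 0.960. The SD of the libraries labelled shEMPTY was the larger one in all 6 genes.

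By adjusted p, 0 of the 6 genes were called, and 0% of all 8611 genes were (limma). At an unadjusted p under 0.05 the count was 0 of 6, where 2.55% of all genes were lower with such a p and 452 genes had one in either direction. The methods' t-test called 0 of 6 after adjustment as well. All 6 had a log2 fold change below 0, against 51.9% of all genes. The median was -1.55 over the 6 and -0.01 over all genes. In no gene of the 6 did every hairpin library lie below every shEMPTY library, a pattern seen in 1.59% of all genes. Of the genes without a test, IFIT2 was detected in 1 of 6 hairpin libraries and 1 of 3 shEMPTY libraries, OASL was at least 1.20-fold lower and MX1 at least 1.12-fold lower in the hairpin libraries, and IFIT5 allowed no fold. OASL and MX1 were detected in shEMPTY replicate 2 alone, so without it neither has a fold.

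Without the library labelled shEMPTY replicate 2 the differences were small. IFIT1 then had a log2 fold change of -0.25 ± 0.27 (SE), IFIT3 -0.19 ± 0.18, OAS1 -0.07 ± 0.26, OAS3 -0.15 ± 0.31 and MX2 -0.08 ± 0.18, and OAS2 changed sign to 0.29 ± 0.33. The median of the 6 was -0.12, with limma adjusted p of 0.995 to 0.998. In that setting 2 shEMPTY libraries were left.

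**Figure D4:**
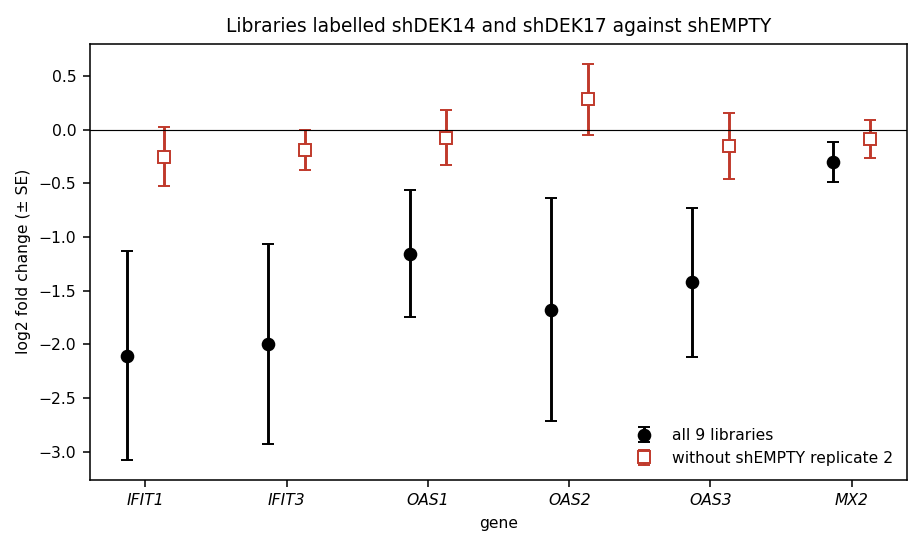
Log2 fold change of the 6 tested genes, libraries labelled shDEK14 and shDEK17 against those labelled shEMPTY, with bars of 1 SE from limma, over all 9 libraries (black circles) and without shEMPTY replicate 2 (open red squares). Over all 9 the values run from -2.11 for IFIT1 to -0.30 for MX2, and without that library from -0.25 to 0.29.

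Each hairpin alone was set against the same 3 shEMPTY libraries. Against them, the libraries labelled shDEK14 had log2 fold changes of -2.12 ± 1.12 for IFIT1, -1.93 ± 1.07 for IFIT3, -1.76 ± 1.20 for OAS2 and -1.38 ± 0.80 for OAS3, with a median of -1.57 over the 6. Those labelled shDEK17 had -2.09 ± 1.12, -2.05 ± 1.07, -1.60 ± 1.20 and -1.47 ± 0.80 for the same genes, with a median of -1.53. OAS1 was not detected in the libraries labelled shDEK17 and was at least 1.88-fold lower there. Without shEMPTY replicate 2 the log2 fold change of OAS1 was -0.20 ± 0.29 (SE). IFIT2 was not detected in those labelled shDEK14 and was at least 2.80-fold lower there. That bound rests on shEMPTY replicate 2, since the other 2 shEMPTY libraries did not detect IFIT2 either. In each contrast 0 of 6 genes were called, against 0% of all genes, and 391 genes for shDEK14 and 327 for shDEK17 had an unadjusted p under 0.05, none of them among the 6 (limma). Without shEMPTY replicate 2 the medians were -0.06 for shDEK14 and -0.20 for shDEK17.

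The contrast of the hairpins with each other does not use the shEMPTY means. The median log2 fold change of shDEK14 over shDEK17 was 0.11, with 4 genes above 0 and 2 below. The largest was 0.25 ± 0.68 (SE) for OAS1, and that of IFIT1 was -0.03 ± 1.12. No gene of the 6 was called, as 0% of all genes were, the limma adjusted p of each was 0.9995, and 156 of all genes had an unadjusted p under 0.05, none of them among the 6. The SE came from a spread that included shEMPTY replicate 2, and without that library it was 0.26 for OAS1 and 0.27 for IFIT1, with the same limma adjusted p.

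The rest of the pathway was read from lists of genes by role, and no listed gene was called between hairpin and empty vector libraries (limma). Of the interferons, IFNB1 was detected in shEMPTY replicate 2 alone, with 252.1 there and 81.0 to 98.3 in the other 8. IFNA1, IFNA2, IFNG, IFNL1 and IFNE were detected in none. The receptor chains on the list (IFNAR1, IFNAR2, IFNGR1, IFNGR2 and IL10RB) were detected in all libraries. IFNAR1 had 279.2 in that library and 209.1 to 323.6 in the others, and IFNAR2 had 399.0 there and 342.2 to 420.9 in the others. IL10RB, a chain shared by the type III interferon receptor, was lowest in that library, with 1898 there and 2077 to 2799 in the others. Of 5 tested ligands and receptors, 1 was lower and 4 were higher in the hairpin libraries, and 0 had a rise over 1.

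Signalling genes were mixed. IRF9, a DNA-binding subunit of the complex that binds the response element, had 1016 in shEMPTY replicate 2 and 140.7 to 195.5 in the others, a rise of 3.49. IRF7, which drives interferon genes, had 796 in that library and 139.3 to 183.7 in the others, and USP18, a brake on the receptor, had 901.4 there and 215.5 to 290.1 elsewhere. The other tested members, JAK1 and TYK2 among them, had rises under 1, so that 3 of 9 tested members passed that size, and 6 of 9 had a log2 fold change below 0, or 3 of 9 without shEMPTY replicate 2.

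Of the RNA and DNA sensors, RIGI and IFIH1 had rises of 3.32 and 2.64, and DHX58, their relative, had 2.40 and was detected in that library only. That list also holds the signalling proteins MAVS and STING1, with rises of 0.31 and 0.34. Of its 5 tested genes, the 3 others had a rise over 1. All 5 had a log2 fold change below 0, as did 3 of 5 without shEMPTY replicate 2. On the oligoadenylate axis, ABCE1, a ribosome recycling factor, had a rise of -0.23 and PDE12, which degrades oligoadenylates, had 0.01. Of 40 other interferon effectors, 27 were tested, 26 of them with a log2 fold change below 0 (median -0.76, against -0.01 over all genes). Without shEMPTY replicate 2 it was 14 of 27, with a median of -0.05, against 52.9% of all genes below 0. In that library 21 of 27 had a rise over 1 (median 2.02). By the probe used for each gene, the highest of the 40 were IFI27 with 6.49, the ubiquitin-like modifier ISG15 with 5.43 and RSAD2, the antiviral enzyme viperin, with 4.48, and IFI27 and RSAD2 were detected in that library only. By further probes, IFI44L had 7.34 at rank 1 of all named probes and IFI6 had 5.88 at rank 4. The summed scaled intensity of the 40 was 70520 in shEMPTY replicate 2 and 17280 to 20140 in the others.

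The tested genes whose log2 values over the 9 libraries were most like the mean of the 6 IFIT, OAS and MX genes were PARP9 (Pearson r of 0.998), IFI6 (0.992), ISG15 (0.988), XAF1 (0.984) and DDX60 (0.981). This likeness rests on shEMPTY replicate 2. Over the other 8 libraries the 5 most alike were RAB23 (0.956), CAPN7 (0.950), IFTAP (0.949), IFI44 (0.941) and MORF4L1 (0.935), none of them among the first 5. These values are a description chosen as the highest of 8611 genes.

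In the gene order of RefSeq the IFIT genes lie side by side on chromosome 10, OAS1, OAS3 and OAS2 on chromosome 12, and MX2 and MX1 on chromosome 21. Within the IFIT row, IFIT1B, which lies between IFIT3 and IFIT1, was detected in no library and had 105.1 in shEMPTY replicate 2 and 86.1 to 96.6 in the others. The flanking genes LIPA and SLC16A12 were detected in all libraries and had rises of 0.19 and -0.05. The flanks of the OAS genes (RPH3A and DTX1) and of the MX genes (FAM3B and TMPRSS2) were detected in none. At such levels neither a difference nor its absence can be read.

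Markers of other cell types were set beside these values. In shEMPTY replicate 2 the summed scaled intensity of the 7 myeloid markers was 10260, against 5996 to 10250 in the others. CTSG and CSF1R had rises of 1.02 and 1.34 over a median of widely spread libraries. Their scaled values were 1209 there and 175.5 to 1077 in the others for CTSG, and 373.7 there and 133.5 to 357.3 for CSF1R. The 3 plasmacytoid dendritic markers summed to 357.0 there and 318.9 to 334.6 in the others, with CLEC4C, LILRA4 and IL3RA not detected anywhere. T and NK cell markers summed to 709.3 there and 599.8 to 699.9 in the others, and B cell markers to 318.3 there and 275.2 to 485.3 in the others. Of the T and NK cell markers only NCAM1 was detected in shEMPTY replicate 2, with 215.2 there and 171.5 to 224.8 in the others. The rest of that sum in shEMPTY replicate 2 is of background. Epithelial markers summed to 364.9 there and 282.9 to 323.6 in the others, and erythroid markers to 255.5 there and 193.1 to 233.7 in the others. No plasmacytoid dendritic, epithelial or erythroid marker was detected on any array. Their sums are therefore of background, from which neither a difference nor its absence can be read. Of single markers, CD3D, CD3E, MS4A1, EPCAM and HBB were detected in no library, while NCAM1 was detected on all 9 arrays, CD79A on 8 and CD2 on 2. The part of IFNB1 or of other cells in the high values of that library was not tested.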

How the data were processed

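Total RNA of 9 U937 libraries was measured on bead arrays, and groups were taken from the labels. The authors deposited average bead intensity per probe for 47323 probes, neither background-subtracted nor normalized, each with a detection p-value whose smallest step was 1 in 770. A second deposited table held those intensities multiplied by 1 factor per array. The sources used here do not name the scanner software. Probes were named from the platform annotation, updated for 30074 of 30113 named probes through RefSeq (GRCh38.p14). Intensities were corrected and quantile-normalized with neqc in limma 3.58.1 (R 4.3.3) with an offset of 16. A probe entered the tests if 3 or more arrays detected it at p under 0.01 (14230 probes), and the probe of highest mean log2 value stood for a gene (8611 genes). All 9 arrays entered 1 limma fit with 4 contrasts and Benjamini-Hochberg adjustment over all genes, with a threshold of 0.05. For a gene detected on no array of a group, the bound used the higher of its own value and the lowest detected signal of each array. All probes of the 10 genes were named, and from each other list up to 3 genes of highest rise, beside the receptors and markers. Some list genes were named for their role after their values were seen. The genes and lists were chosen with earlier results of these data known. The fit was tested on simulated data. Alternatives changed the background, the scaling, the filter, the probe choice, the test, the replicate block and the libraries. The number of arrays limits the precision.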

Additional observations from a re-analysis of the deposited data

How the results depend on the processing

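None of the 6 tested genes was called in any contrast under 11 other settings and 10 settings with libraries left out, each run for 4 contrasts (for limma and the methods' t-test, lowest adjusted p of 0.632). With libraries left out, the median log2 fold change for the average of both hairpins lay between -2.51 (without shEMPTY replicate 1) and -0.12 (without shEMPTY replicate 2). IFIT1 ranged from -3.13 to -0.25, IFIT3 from -2.97 to -0.19, OAS1 from -1.86 to -0.07, OAS3 from -2.21 to -0.15 and MX2 from -0.45 to -0.07. OAS2 ranged from -2.91 to 0.29 and changed sign both without shEMPTY replicate 2 (0.29) and without the libraries numbered 2 in every group (0.29). In the last setting 1, 4, 1 and 10 of all genes were called in the average, shDEK14, shDEK17 and between-hairpin contrasts, none of them among the 6. Under the other settings all 66 values of single genes kept their sign and stayed uncalled. With a normexp background (offset 50) IFIT1, IFIT3 and OAS3 had an unadjusted p of 0.041 to 0.047 for the average of both hairpins (limma). Without shEMPTY replicate 1, IFIT1, IFIT3, OAS1, OAS2 and OAS3 had one of 0.009 to 0.020 (limma). Without shEMPTY replicate 3, IFIT1, IFIT3, OAS1 and OAS3 had one of 0.011 to 0.047 (limma). Median scaling gave 0.037 for IFIT1 and 0.041 for IFIT3 (limma). IFIT1 also had 0.049 without background correction, 0.047 on the authors' scaled values and 0.0496 with detection on at least 1 array (limma). In these settings the share of all genes with such a p was not counted. Without shEMPTY replicate 2 the lowest p of the 6 was 0.323, where 396 of all genes were under 0.05 (limma). The replicate block left the median at -1.55 and the count of calls at 0. For that average it gave an unadjusted p under 0.05 for 3 of the 6 genes in place of 0, and for 331 of all 8611 genes in place of 452 (limma). The labels give the replicate number as an experiment shared by the groups. Same-numbered libraries correlated in their deviations between -0.43 and 0.27, which does not show a shared shift, and 3 libraries a group settle it neither way.

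On the authors' scaled values, which keep the background, the median rise of the 10 genes in shEMPTY replicate 2 was 2.93 in place of 4.09. The single rises were smaller for 9 of the 10 genes by more than the spread of the other libraries, among them IFIT2 at 4.75, OASL at 2.70 and MX1 at 0.98. Ranks among named probes moved with the scale and the comparison: MX2 was at 175 on scaled values and at 780 against shEMPTY replicates 1 and 3, in place of 526, MX1 at 96 on scaled values in place of 64, and OAS1 at 18 in place of 9 among tested genes. Dim probes near background limit what can be read from IFIT5, MX1 and OASL outside that library.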
